A study of Mus musculus with 4 samples.

Results

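The 9 genes described here, Egr1, Egr2, Nr4a1, Ier2, Ier3, Ier5, Btg2, Zfp36 and Rhob, were taken by symbol from the 55487 genes of the count matrices, and each symbol matched 1 gene. Single-cell RNA sequencing of mouse brain gave 4 libraries, 1 each from young and old WT Cre mice and young and old EC-K4KO mice. EC-K4KO mice carried a floxed Klf4 gene and CDH5-CreERT2, a Cre recombinase that is driven by the promoter of the endothelial cadherin gene and is active only after tamoxifen. WT Cre mice were littermates that carried the Cre driver without the floxed alleles, and by the study's methods both groups were given tamoxifen in the same way, so that Cre and, by the methods, tamoxifen were shared by all 4 libraries. The sample labels, by contrast, state that no drug treatment was used, and which of the statements holds for these libraries is not known here. Mice were on the C57BL/6J background, of both sexes, and were labelled young or old. Brains were dissociated with enzymes and mechanically, and the cells were enriched for endothelial cells by surface marker before loading. The number of mice behind a library was not given, and no group had a replicate library.

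Immediate early genes are transcribed within minutes of a stimulus, such as a growth factor, calcium entry, fluid flow or an inflammatory signal, from factors that are already present in the cell and need no new protein synthesis. Serum response factor with its ETS partners, CREB and NF-kappaB are the best known of these factors, and MAP kinases carry the signal to them. In brain endothelium the class includes transcription factors, RNA-binding proteins that destabilise cytokine transcripts, and regulators of growth and adhesion. Dissociating tissue is itself a known stimulus of these genes.

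The libraries held between 5324 and 8358 cell barcodes and between 30655769 and 88812581 UMIs (unique molecular identifiers, each standing for 1 captured transcript). After the filters, 20737 cells were kept, and 19795 were placed in classes by marker UMIs. Values of all 4 libraries are given below in library order, which is the young pair and then the old pair, each with WT Cre before EC-K4KO. There were 2811, 3516, 2235 and 1943 endothelial-like cells in that order. The median UMIs of an endothelial-like cell were 6509, 10301, 4819 and 3837, and those of an astrocyte-like cell 7637, 7158, 4363 and 3678. All 9 endothelial markers were detected in each library, and their summed level was between 15700 and 19374 CPM (UMIs of a gene or list scaled to a class total of 1000000) in these cells. The classes with at least 50 cells in every library were endothelial-like, smooth muscle-like, pericyte-like, microglia-like and astrocyte-like cells. The young libraries shared 42 barcodes, other pairs of libraries shared 7 to 15, and leaving these cells out moved no count of members given here by over 1.5 times.

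Klf4 itself went against the label. In endothelial-like cells its level was 1699, 3294, 2079 and 3285 CPM in library order, so it was 1.94-fold and 1.58-fold higher where the label gives a knockout. The study checked the deletion apart from these libraries, in brain endothelial cells isolated after tamoxifen. It used quantitative PCR for Klf4 mRNA and western blot for the protein. Whether the UMIs come from the part of the gene that Cre removes is not known from these counts. Directions below between EC-K4KO and WT Cre therefore hold between libraries as labelled.

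Of the 5 classes found in every library, astrocyte-like cells held the lowest levels of each member but Egr2, and they are used below as the class with little of these transcripts. Rhob apart, no member exceeded 135 CPM in astrocyte-like cells of any library, whereas in endothelial-like cells the members other than Egr2 ranged from 387 to 5518 CPM. After each cell was thinned to 1000 UMIs, 65.2% to 72.4% of astrocyte-like cells held no UMI of any member, against 3.81% to 8.82% of endothelial-like cells. The order of classes below is a description over 4 libraries, since levels were compared within a gene only.

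**Figure D1:**
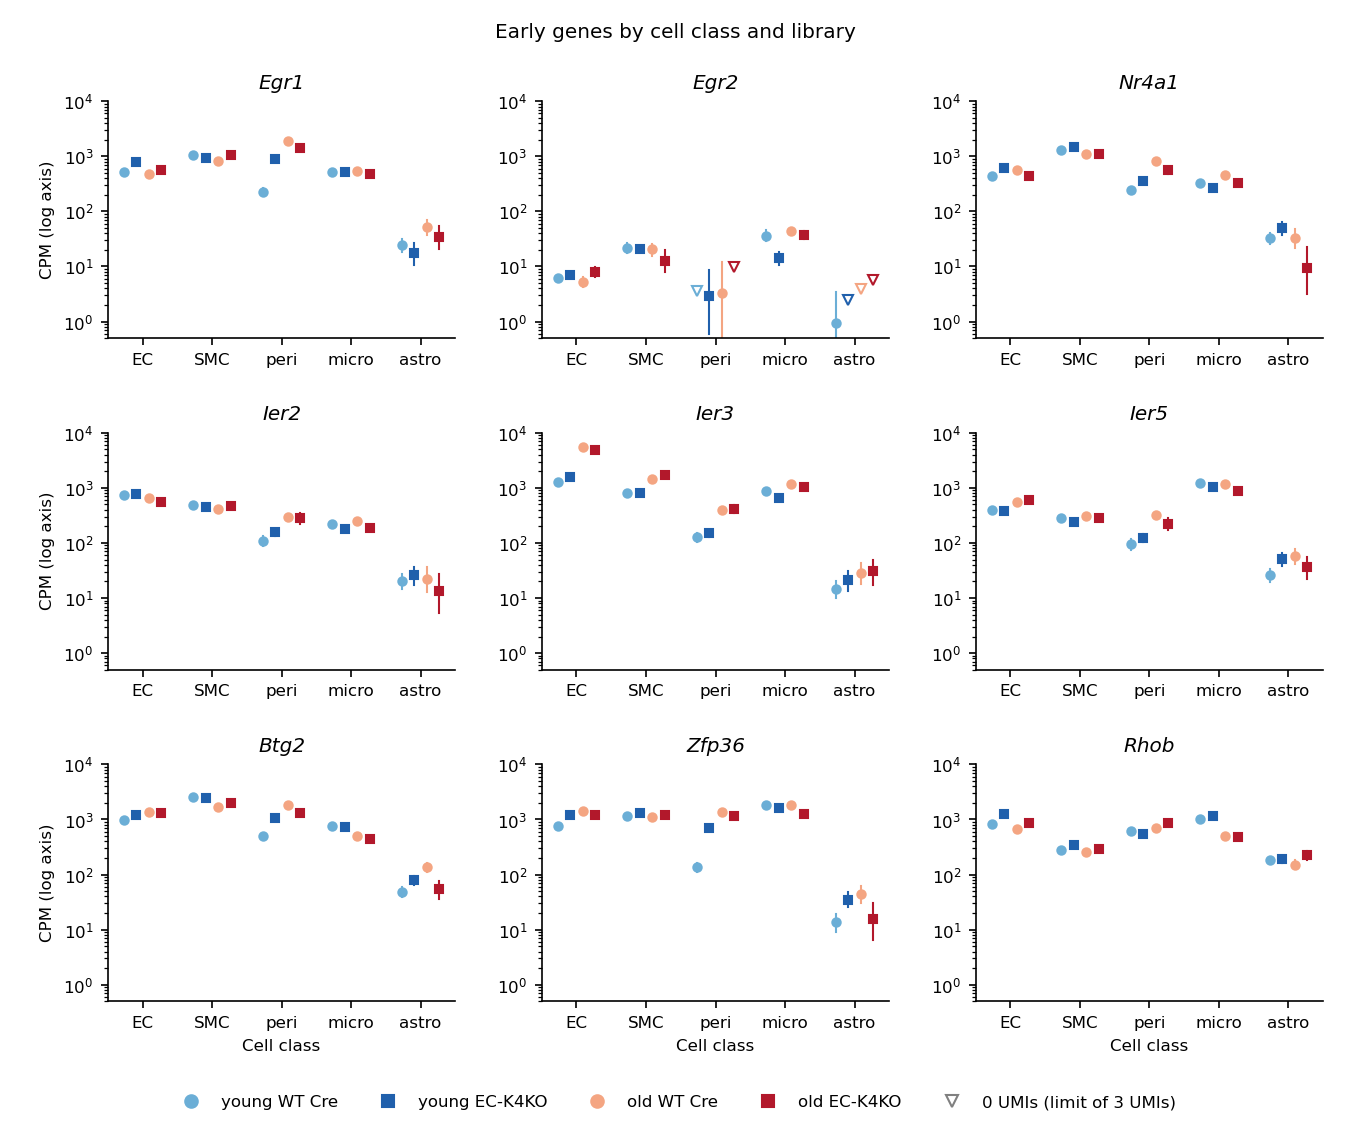
Level of each member (CPM, log axis) in the 5 cell classes found in every library (EC, endothelial-like; SMC, smooth muscle-like; peri, pericyte-like; micro, microglia-like; astro, astrocyte-like). Each point is 1 library with its exact Poisson 95% interval, and an open triangle stands for 0 UMIs, drawn at the limit of 3 UMIs; astrocyte-like cells lie lowest for 8 of the members, and the Egr1 and Zfp36 points of pericyte-like cells are the most spread.

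Nr4a1, an orphan nuclear receptor, was highest in smooth muscle-like cells (1084 to 1457 CPM), with no overlap with any other class. Btg2, which slows cell division and recruits the deadenylase complex to transcripts, was also highest there, at 1714 to 2566 CPM, although its highest pericyte-like value (1828 CPM) reached into that range. Ier2, a nuclear protein induced by growth factors, was highest in endothelial-like cells (563 to 773 CPM) and did not overlap with smooth muscle-like cells (414 to 486 CPM). Ier5, which takes part in the heat shock response through HSF1, was highest in microglia-like cells (891 to 1226 CPM) without overlap. Egr1, a zinc finger activator, was highest by median in pericyte-like and smooth muscle-like cells, which overlapped, and its pericyte-like range (228 to 1898 CPM) also spanned the endothelial-like (479 to 804 CPM) and microglia-like levels (468 to 540 CPM). Egr2, a relative of Egr1 that is needed for myelination by Schwann cells, was scarce in every class, and its microglia-like (14.2 to 44.6 CPM) and smooth muscle-like levels (12.8 to 21.6 CPM) overlapped while endothelial-like cells held 5.25 to 7.98 CPM. Rhob, a small GTPase of endosomes and the actin cytoskeleton, had overlapping levels in endothelial-like, microglia-like and pericyte-like cells and was lower in smooth muscle-like cells (257 to 340 CPM). The levels of Zfp36, which binds AU-rich elements and destabilises cytokine transcripts, overlapped among all classes but astrocyte-like cells. Ier3, a stress-induced regulator of cell survival and of NF-kappaB signalling, was lowest of the non-astrocyte classes in pericyte-like cells, and its endothelial-like (1289 to 5518 CPM) and microglia-like ranges (661 to 1164 CPM) each overlapped with that of smooth muscle-like cells but not with each other.

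The stretch just upstream of a gene start is where early factors bind, so 4 members whose levels differed most in vessel cells and whose window held a motif searched are shown by the 250 bases before their RefSeq start in GRCm38.p6. RefSeq windows were found for 7 of the 9 members, with 11 windows in all. Capitals mark the motif named for each window, and a match is a description of letters only. The letters searched on both strands were the CArG box of serum response factor and the kappaB site, by their usual consensus, the full CRE TGACGTCA, its short form TGACG, the EGR site GCGNGGGCG, the AP-1 site TGANTCA and TATAAA; a full CRE holds the short form on each strand, so those matches overlap. Ier3 on chr17:35821463-35821712 (plus strand) has a kappaB match. Zfp36 on chr7:28379229-28379478 (minus strand) has a CArG box and an EGR site. Btg2 on chr1:134079156-134079405 (minus strand) has a full CRE and an EGR site. Nr4a1 on chr15:101266596-101266845 (plus strand) has an EGR site, and the 4 short CRE matches in its window are left in lower case.
Ier3: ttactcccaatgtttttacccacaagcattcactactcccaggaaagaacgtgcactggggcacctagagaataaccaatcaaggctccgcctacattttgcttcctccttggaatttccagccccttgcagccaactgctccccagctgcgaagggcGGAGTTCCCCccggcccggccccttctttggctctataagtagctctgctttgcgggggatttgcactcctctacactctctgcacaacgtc
Zfp36: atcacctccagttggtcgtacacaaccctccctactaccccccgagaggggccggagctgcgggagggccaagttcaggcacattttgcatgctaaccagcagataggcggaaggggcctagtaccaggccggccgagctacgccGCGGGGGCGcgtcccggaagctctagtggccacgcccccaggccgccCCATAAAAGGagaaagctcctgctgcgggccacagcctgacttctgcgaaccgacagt
Btg2: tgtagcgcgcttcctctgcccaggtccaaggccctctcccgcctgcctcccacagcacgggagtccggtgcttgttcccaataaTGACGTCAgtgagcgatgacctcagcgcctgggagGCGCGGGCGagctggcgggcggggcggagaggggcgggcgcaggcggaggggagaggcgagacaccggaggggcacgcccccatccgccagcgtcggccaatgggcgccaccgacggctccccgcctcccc
Nr4a1: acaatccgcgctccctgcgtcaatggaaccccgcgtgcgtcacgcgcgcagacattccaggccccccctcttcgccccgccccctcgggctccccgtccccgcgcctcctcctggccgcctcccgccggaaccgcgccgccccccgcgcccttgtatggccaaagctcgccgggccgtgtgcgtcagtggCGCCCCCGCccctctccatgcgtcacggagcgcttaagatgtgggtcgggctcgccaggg

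Of all 32817 RefSeq windows of this length, 1.47% held a CArG box, 1.55% a full CRE, 4.70% an EGR site, 7.25% a kappaB site and 17.8% a short CRE. The EGR site was thus present in the windows of Nr4a1, Btg2 and Zfp36. The windows of Ier5 and Rhob held none of the motifs searched, among them AP-1 (6.75% of all windows) and TATAAA (12.4%), which says only that these letters were not in that stretch.

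The comparison of old with young asks how the members differ with age in endothelial cells, and here Ier3 stood first. Ier3 was at 1289, 1559, 5518 and 4969 CPM in library order. Both old libraries were above both young libraries, by 4.28-fold within the WT Cre label and 3.19-fold within the EC-K4KO label. Counting error was small beside these differences (95% interval of the log2 ratio, 2.08 to 2.12 and 1.66 to 1.69). The share of thinned cells with an Ier3 UMI was 38.3%, 44.3%, 69.5% and 72.3% in the same order, against 0.621% to 2.36% of astrocyte-like cells. More cells held the transcript in the old libraries, at a fixed depth.

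With 1 library per group there is no test within a genotype label or within an age. A quasi-likelihood fit with edgeR over the 4 summed libraries, with age and genotype label as terms that add, gives the only test across libraries. It leaves 1 residual degree of freedom, which is how far the libraries depart from terms that add. Its p-values therefore measure no spread between replicate libraries. In that fit 3 of 9 members rose with age in endothelial-like cells, where 10.9% of the 15085 genes tested rose and 6.89% fell. The split of all genes depended on the scaling, with 1645 higher and 1039 lower in this fit but 1107 higher and 2916 lower with library totals only. Ier3 had a log2 change of 2.03 (adjusted p = 8.87e-05, edgeR), Ier5 of 0.71 (adjusted p = 0.00135) and Btg2 of 0.42 (adjusted p = 0.0375). The calls of Ier3 and Ier5 were kept in all 10 alternatives. The call of Btg2 was lost with library totals as the only scaling (adjusted p = 0.0795 in edgeR, the highest of a range from 7.3e-05). The median log2 change was 0.13 over the 9 members and -0.02 over all genes tested.

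Ier5 was at 405, 387, 555 and 614 CPM in library order. Btg2 was at 998, 1230, 1370 and 1320 CPM in the same order, both old libraries above both young ones.

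The plain ratios were read against a fold of 1.5. In WT Cre, 2 of the 8 members with at least 10 CPM were past 1.5-fold higher in the old library (Ier3 and Zfp36), where 4.05% of all such genes were, and in EC-K4KO 2 of 8 were (Ier3 and Ier5), where 4.47% were. The median log2 ratio over those 8 members was 0.42 in WT Cre and -0.23 in EC-K4KO, beside -0.18 and -0.14 over all genes. With scaling by TMM factors, which takes out that shift of all genes, 4 members were past 1.5-fold in WT Cre.

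**Figure D2:**
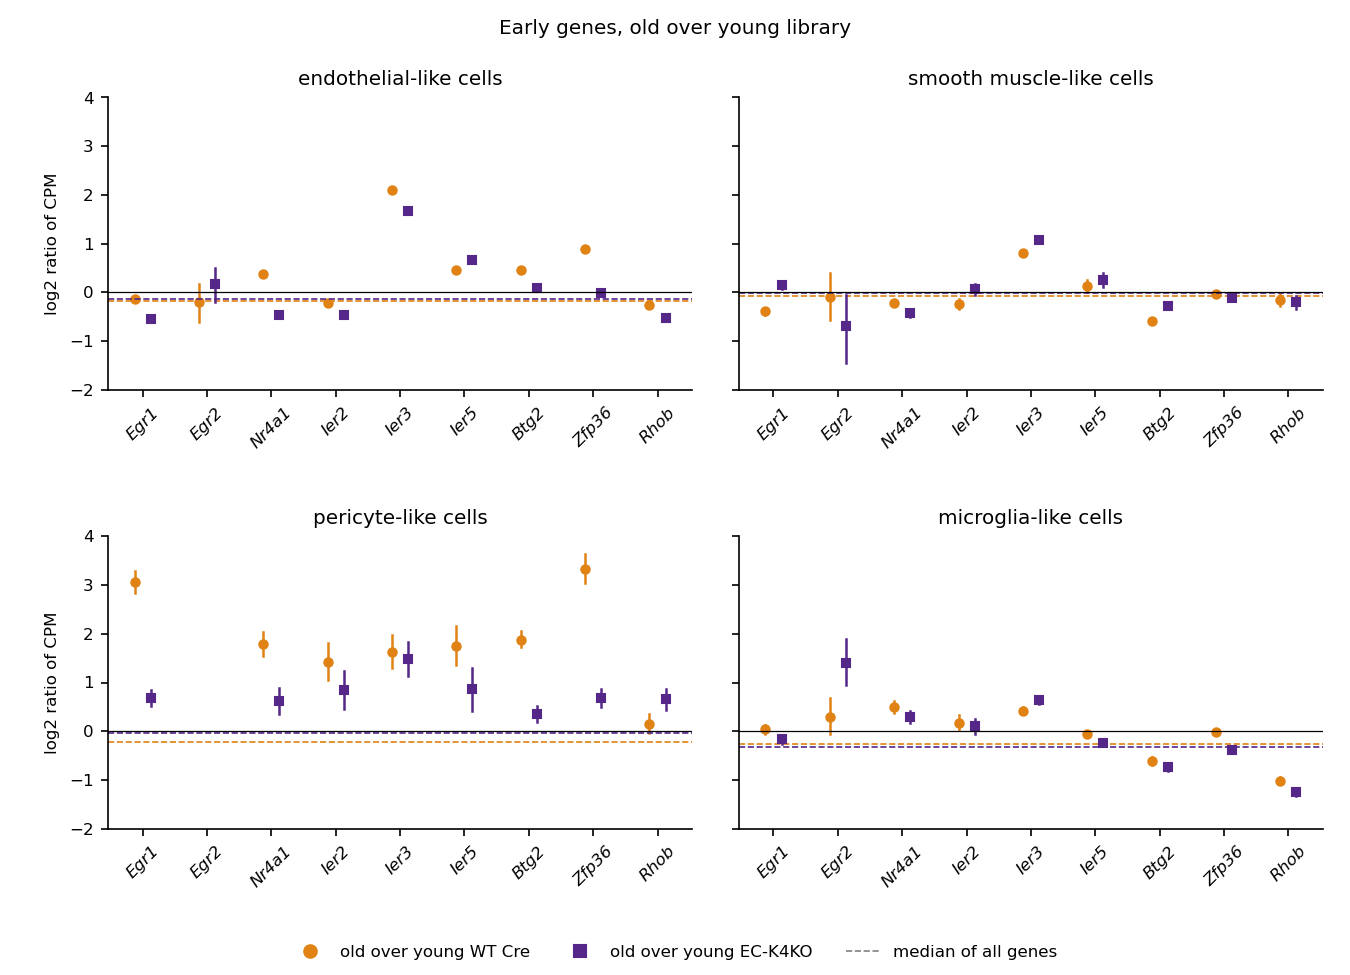
Log2 ratio of old over young for each member in 4 cell classes, within the WT Cre label and within the EC-K4KO label, with exact 95% counting intervals and a dashed line at the median of all genes. Ier3 in endothelial-like cells lies at 2.10 and 1.67, and the pericyte-like ratios of the WT Cre pair reach 3.33 for Zfp36.

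Zfp36 and Nr4a1 did not move alike under both labels. Zfp36 was at 758, 1213, 1411 and 1208 CPM in library order. It was low in the young WT Cre library alone, with a log2 ratio with age of 0.90 in WT Cre and -0.01 in EC-K4KO. Its additive log2 change with age was 0.59 (adjusted p = 0.0647, edgeR), which missed the threshold, passed it in 3 of 10 alternatives and ranged from 1.5e-12 to 0.522 in adjusted p over them. Nr4a1 was at 440.0, 611, 575 and 444 CPM in the same order, high in young EC-K4KO and old WT Cre. Its log2 ratio with age was 0.39 (95% interval 0.35 to 0.43) in WT Cre and -0.46 (-0.51 to -0.42) in EC-K4KO, and the additive fit gave 0.11 (adjusted p = 0.704, edgeR).

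The remaining 4 members did not pass in the additive fit, but with library totals as the only scaling, under which 2916 of 15085 genes were called lower, 3 of them were called lower with age. Egr1 was at 529, 804, 479 and 555 CPM, with an additive log2 change with age of -0.19 (adjusted p = 0.256, edgeR; 0.0478 to 0.974 over the alternatives, passed in 1 of 10). Its lower plain ratios in the old libraries were -0.14 in WT Cre and -0.54 in EC-K4KO, and with TMM factors the first turns to 0.018. Ier2 was at 750, 773, 648 and 563 CPM (log2 change -0.19, adjusted p = 0.212, edgeR), which passed in 1 of 10 alternatives with a range from 0.0303 to 0.957. Rhob was at 818, 1238, 681 and 864 CPM (-0.25, adjusted p = 0.123), which passed in 2 of 10, with library totals and with no filter on low counts, and ranged from 0.02 to 0.421. Egr2 was at 6.06, 7.11, 5.25 and 7.98 CPM (0.13, adjusted p = 0.639).

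Old and young endothelial-like cells were spread differently over transcriptome clusters, so levels were also read inside clusters that held at least 50 cells of every library. These clusters were built without the members and the other listed genes, and the reading was chosen after the values were seen. The largest cluster of both old libraries, led by Apln and Adm, held 36.0% and 36.9% of their endothelial-like cells and was not the largest in either young library. The limit of 50 cells left out a cluster led by Rnu11 and Unc13c, with 23.4% of young WT Cre and 22.1% of young EC-K4KO endothelial-like cells. It also left out that led by Gm26802 and Milr1, with 11.1% and 23.4% of them. Ier3 was higher in both old than in both young libraries in all 5 clusters that were read, and Ier5 in 3 of 5. In the cluster led by Apln, Ier3 was at 2397 and 2549 CPM in the young and at 7659 and 6416 CPM in the old libraries, WT Cre first. In that cluster Egr1 was at 1224, 2121, 662 and 856 CPM and Ier2 at 1672, 1307, 756 and 751 CPM in the same order, lower in both old libraries. Of these 5 clusters, 1 was led by myelin and glial genes. Egr1 was lower in both old libraries in all 5 and Ier2 and Nr4a1 in 4 of 5 each. Btg2 was higher in both old libraries in 1 of the 5 clusters, and Zfp36 in none (0 of 5).

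By vessel zone, called from zone markers, Ier3 was at 932, 1151, 5409 and 4773 CPM in capillary-like cells, the most frequent zone (1353 to 3050 cells per library). The old over young ratio there was 5.80-fold in WT Cre and 4.15-fold in EC-K4KO. In arterial-like cells (84 to 133 per library) it was 1086, 1899, 5344 and 4317 CPM. In venous-like cells, which reached 50 cells in 3 libraries, it was 5325 CPM in young EC-K4KO, and the old libraries held 6022 CPM (WT Cre) and 5266 CPM (EC-K4KO). In the cluster led by Ackr1, a venous marker, which held 70 cells of young WT Cre, Ier3 was at 5340, 4194, 7431 and 6135 CPM, so that the young libraries of both labels were far above their capillary-like level there. Venous-like cells of young EC-K4KO held more Zfp36 (3890 CPM, against 1777 and 1402 CPM) and more Egr1 (1635 CPM, against 442 and 599 CPM) than those of the old libraries.

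Other genes of the early response were counted in the same fit. Of 15 relatives of the members, 9 rose with age in endothelial-like cells by edgeR, led by Nr4a3 (log2 change 1.06), Nr4a2 (0.82) and Btg1 (0.54). Of 34 other early genes tested, 22 rose, led by Ptgs2, the inducible cyclooxygenase (2.36), Gadd45b, a stress sensor (1.59), and Dusp2, a MAP kinase phosphatase (1.33), and Ccn1 fell by 0.35 on the log2 scale. Of 14 genes of the SRF, CREB and MAP kinase pathway, 1 rose (Rps6ka3, 0.29). Of 8 heat shock genes, which mark stress that can arise in preparation, 7 rose, led by Hsph1 (1.46), Dnajb1 (0.87) and Hspa1a (0.87). DESeq2 called 5 relatives, 18 other early genes, 0 pathway genes and 6 heat shock genes, all higher. Hspa1a was at 1175, 919, 1813 and 1619 CPM in library order. Of barcodes, 10.6%, 14.4%, 16.3% and 16.1% failed the mitochondrial limit in the same order. Summed choroid plexus markers were 64.1, 14.4, 320 and 133 CPM in endothelial-like cells in library order, and they were higher in both old libraries in pericyte-like (82.0, 24.2, 534 and 199 CPM) and microglia-like cells too (83.4, 24.1, 346 and 123 CPM). The part of heat shock expression, choroid plexus RNA, depth and RNA quality in the differences with age was not tested.

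**Figure D3:**
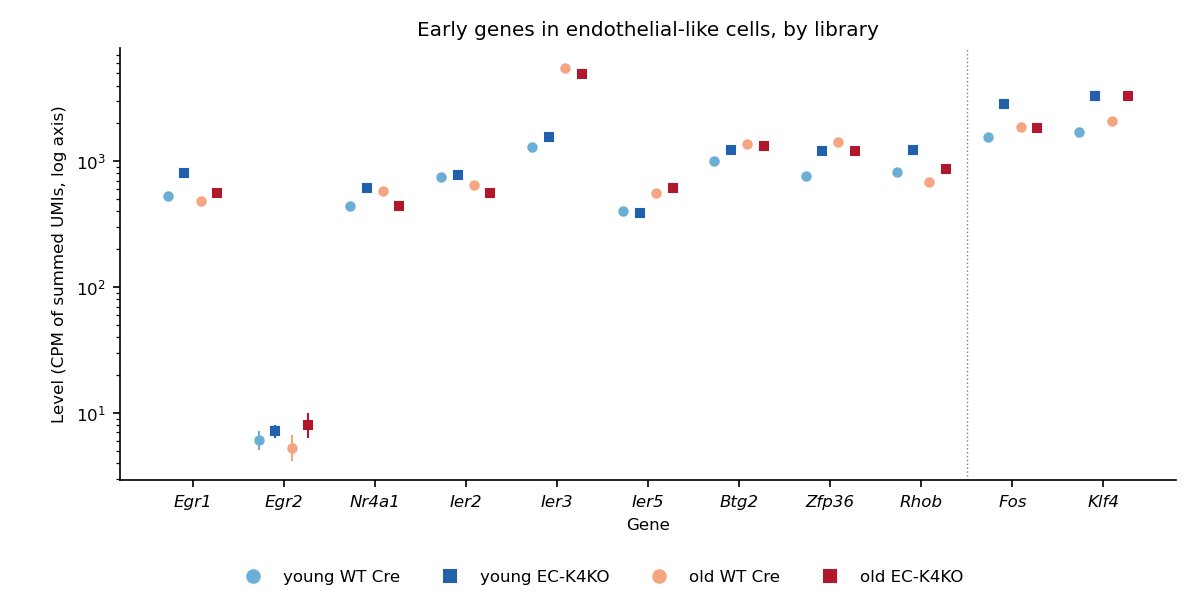
Level of each member in endothelial-like cells (CPM) in the 4 libraries, with exact Poisson 95% intervals. Ier3 is at 5518 and 4969 in the old libraries against 1289 and 1559 in the young, and Zfp36 is lowest in young WT Cre at 758.

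The comparison of EC-K4KO with WT Cre was made by the study for the loss of endothelial Klf4, which the Klf4 levels above do not show, and it shares its libraries with the comparison of old with young. Of the members with at least 10 CPM in endothelial-like cells, those past 1.5-fold between the labels were all in the young pair. Egr1 was 1.52-fold higher in young EC-K4KO (log2 ratio 0.60, 95% interval 0.58 to 0.63), Zfp36 1.60-fold (1.58 to 1.63) and Rhob 1.51-fold (1.49 to 1.54). These were 3 of the 8 members with at least 10 CPM, where 1.12% of genes were past 1.5-fold higher. In the old pair 0 of 8 were past it, where 1.43% of genes were higher and 1.3% lower. Egr1 and Rhob kept their direction in the old pair, at log2 ratios of 0.21 and 0.34, whereas Zfp36 was at -0.22. The 6 erythroid markers summed to 2850, 6461, 3419 and 2274 CPM in endothelial-like cells in library order, highest in the same young EC-K4KO library, and their part in the young ratios was not tested.

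The labels also differed in clusters. In the young pair, WT Cre first, a cluster that was named endothelial by its markers but led, against the other endothelial-like cells, by the myelin and glial genes Mbp, Mobp and Slc1a2 held 28.1% and 14.9% of these cells, that led by Gm26802 and Milr1 11.1% and 23.4%, and that led by Ackr1 70 and 206 cells. Inside the 5 clusters with at least 50 cells of every library, Egr1 was higher with the EC-K4KO label in 4 of 5 in the young pair and 3 of 5 in the old pair. Zfp36 was higher in 5 of 5 and 0 of 5, and Rhob in 5 of 5 and 4 of 5. In the cluster led by Slc26a10 Egr1 was at 304, 265, 120 and 67.6 CPM in library order, lower with the EC-K4KO label at both ages, and Zfp36 at 346, 398, 456 and 240.3 CPM.

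The edgeR fit called 0 of 9 members with genotype label in endothelial-like cells, where 1.54% of genes were called in either direction. At an unadjusted p under 0.05 there were 3 members, and DESeq2 called 1 (Rhob). Rhob had an additive log2 change of 0.51 (adjusted p = 0.0559, edgeR) and passed in 5 of 10 alternatives, whose adjusted p ranged from 1.02e-05 to 0.0814. Egr1 had 0.44 (adjusted p = 0.126, edgeR) and passed in 2 of 10, with a range from 4.18e-05 to 0.18. Egr2, at 0.42 (adjusted p = 0.376), was the third at the unadjusted threshold. The other 6 lay between -0.04 (Ier2) and 0.26 (Zfp36). The shares of thinned cells with Rhob were 49.3%, 64.4%, 44.5% and 55.5% in library order, higher with the EC-K4KO label at both ages and far above the 13.1% to 17.3% of astrocyte-like cells.

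**Figure D4:**
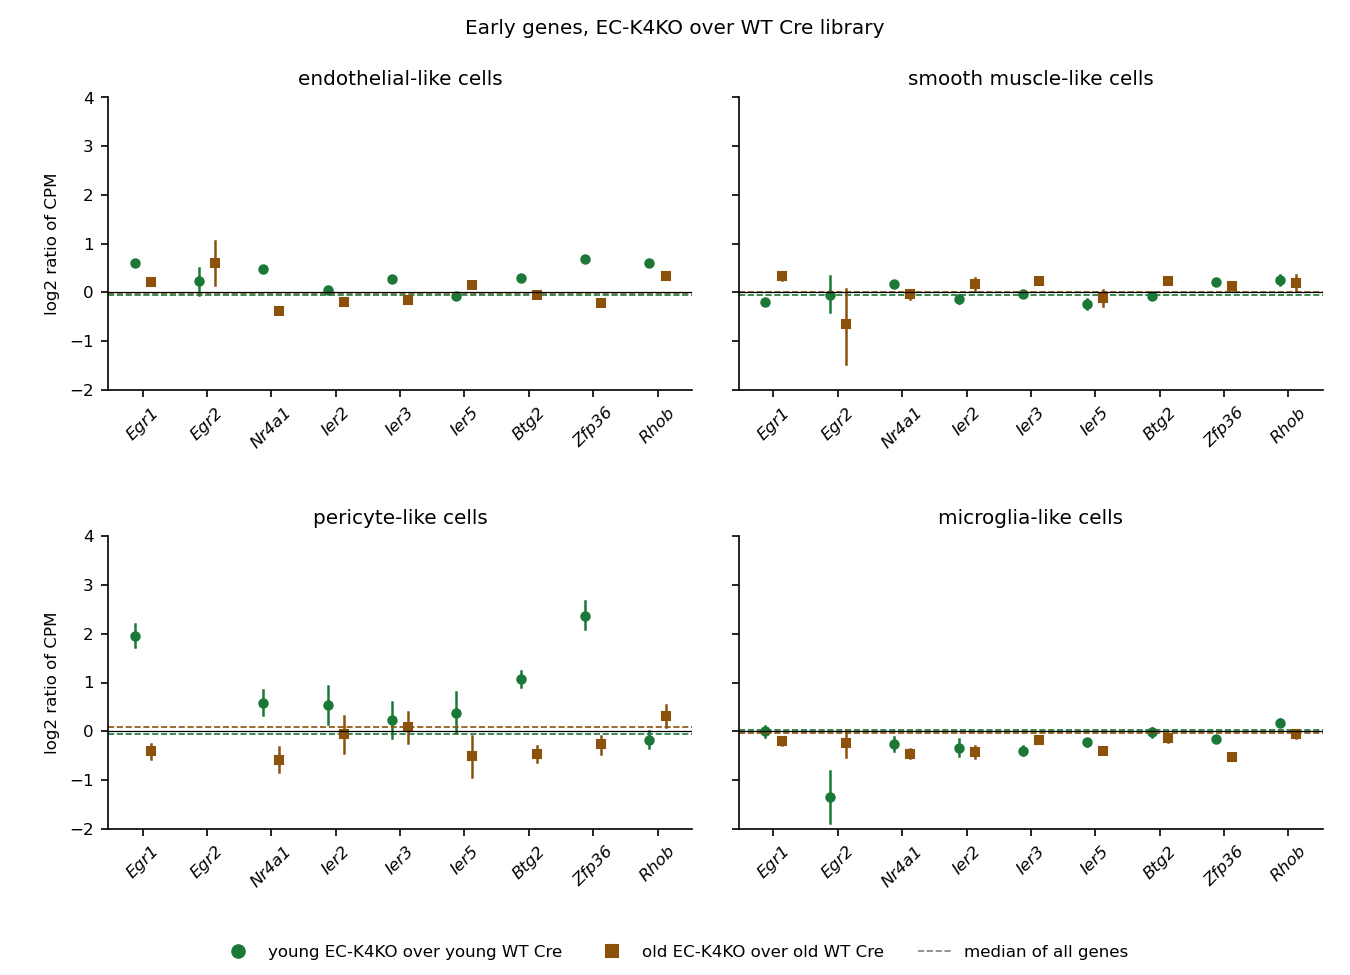
Log2 ratio of EC-K4KO over WT Cre for each member in 4 cell classes, in the young and in the old pair, with exact 95% counting intervals and a dashed line at the median of all genes. In endothelial-like cells Egr1 and Rhob lie above 0 in both pairs (0.60 and 0.21, 0.60 and 0.34), and Nr4a1 and Zfp36 lie above 0 in the young and below 0 in the old pair.

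Of the other early genes, 7 of 34 were higher with the EC-K4KO label in endothelial-like cells by edgeR, led by Ptgs2 (log2 change 0.95), Klf4 (0.84) and Klf6 and Dusp2 (both 0.61), and DESeq2 called 5. None of the 15 relatives, 14 pathway genes or 8 heat shock genes passed in edgeR (0 in each list, with 4, 1 and 3 at an unadjusted p under 0.05) or in DESeq2. Fos, the partner of Jun in AP-1, was at 1546, 2847, 1873 and 1839 CPM in library order, high in the library where Egr1 was high.

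Cells were also described by how many members they held. The mean number of the 9 members with a UMI in a thinned cell was 2.85, 3.50, 3.70 and 3.74 in library order. Cells with at least 5 members made up 20.9%, 33.6%, 35.1% and 35.9%, so the young WT Cre library stood below the other 3. As a description over cells of 1 library, which share depth, the 36 pairs of members had a median Pearson's r of 0.15, 0.14, 0.11 and 0.11 in library order. The highest pair was Ier3 with Zfp36 (0.35 to 0.44 in the 4 libraries), and the lowest pair of a library lay between -0.022 and 0.012.

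Pericyte-like cells, the contractile cells on capillaries, held the largest ratios of the members, and also the least certain ones. They numbered 216, 271, 203 and 119 in library order, and were not part of the edgeR fits, and all 6 pericyte markers were detected in each. Egr1 was at 228, 889, 1898 and 1425 CPM. Zfp36 was at 136, 709, 1374 and 1138 CPM. Btg2 was at 496, 1043, 1828 and 1331 CPM. For each of these 3 genes the young WT Cre library was lowest and the old WT Cre library highest.

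The old over young ratio in WT Cre was 8.31-fold for Egr1 (95% interval 7.13 to 9.77), 3.69-fold for Btg2, 3.45-fold for Nr4a1 and 3.08-fold for Ier3. Zfp36 had the highest, a log2 ratio of 3.33 (95% interval 8.27-fold to 12.4-fold). Of the 8 members with at least 10 CPM, 7 were past 1.5-fold higher, all but Rhob, where 9.92% of genes were. In EC-K4KO 7 of 8 were past it as well, all but Btg2, where 13.4% of genes were, but 2 with classes set by clusters, with smaller ratios of 1.60-fold for Egr1 and 2.78-fold for Ier3. The median log2 ratio over those 8 members was 1.76 in WT Cre and 0.68 in EC-K4KO, beside -0.22 and -0.03 over all genes. Nr4a1 was at 241, 361, 832 and 556 CPM, Ier2 at 109, 157, 293 and 281 CPM, Ier3 at 127, 149, 391 and 415 CPM and Ier5 at 94.1, 123, 316 and 222 CPM in library order, each higher in both old libraries. Rhob was at 623, 551, 696 and 866 CPM, a log2 ratio with age of 0.16 in WT Cre and 0.65 in EC-K4KO. Egr2 had 0, 3, 2 and 0 UMIs in these cells, at or under the limit of 3 UMIs, so no ratio is given.

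Between the young pericyte-like libraries, 3 of 8 members were past 1.5-fold higher in EC-K4KO, where 8.16% of genes were. Zfp36 was 5.18-fold higher, and Egr1 and Btg2 had log2 ratios of 1.96 (95% interval 1.74 to 2.20) and 1.07. Between the old libraries 0 of 8 were past 1.5-fold, where 19% of genes were higher and 11.1% lower, and Egr1 was at -0.41 (-0.58 to -0.25). The count of the young pair was 5 with stricter cell filters and 7 with classes set by clusters, and that of the old pair lay between 0 and 3 over the alternatives.

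These ratios depended on which cells were counted. Most pericyte-like cells lay in 1 cluster (183, 189, 141 and 99 cells), while others, 45 of them in young EC-K4KO, lay in a cluster named smooth muscle. In the largest cluster alone, an alternative chosen after seeing the data, Egr1 was at 207, 594, 2166 and 1402 CPM, Zfp36 at 93.4, 179, 928 and 586 CPM and Btg2 at 468, 448, 1345 and 975 CPM. Both old libraries were again above both young ones for each of the 3. The young pair was closer there, with a log2 ratio of 0.93 for Zfp36, and it turned for Nr4a1 (-0.29, against 0.58 in all pericyte-like cells) and Btg2 (-0.064). With classes set by clusters instead of by cells, the old over young ratio of EC-K4KO turned for Zfp36 (-0.60) and Nr4a1 (-0.35).

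Stress and other early genes moved with the members in pericyte-like cells. The 8 heat shock genes summed to 1815, 3690, 9162 and 8186 CPM in library order. The 35 other early genes summed to 3854, 11566, 30983 and 23549 CPM. The members summed to 2054, 3987, 7632 and 6235 CPM, the same order of the libraries. Summed smooth muscle markers in these cells were 2695, 3495, 3072 and 2851 CPM and summed endothelial markers 276, 359, 138 and 180 CPM. The part of heat shock expression and of smooth muscle RNA in the pericyte-like ratios was not tested. At 1000 UMIs per cell, Egr1 was found in 10.6%, 30.3%, 47.3% and 41.2% of pericyte-like cells, against 0 of 161 to 2.36% of astrocyte-like cells (exact upper limit for the 0, 2.27%), and unthinned in 19.4%, 38.7%, 56.2% and 49.6%. Cells with at least 5 members made up 1.39%, 6.27%, 21.7% and 18.5%.

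Smooth muscle-like cells (437, 1278, 504 and 268 in library order) shared the higher Ier3 of the old libraries, the 1 member called with age both here and in endothelial-like cells. Ier3 was at 823, 810, 1443 and 1707 CPM, 1.75-fold higher with age in WT Cre and 2.11-fold in EC-K4KO. It was the 1 member of 9 that edgeR called with age (log2 change 0.99, adjusted p = 6.11e-05), in all 9 alternatives, where 2.9% of 11027 genes rose and 1.5% fell (320 and 165 genes, against 258 and 205 with library totals only). Egr1 (1072, 931, 819 and 1038 CPM) overlapped between the ages and did not pass. Nr4a1 (1297, 1457, 1114 and 1084 CPM) was lower in both old libraries and did not pass (log2 change -0.27, adjusted p = 0.258, edgeR). Btg2, at 2566, 2455, 1714 and 2018 CPM, was lower in both old libraries and had a log2 change of -0.38 (adjusted p = 0.0981, edgeR), which passed in 4 of 9 alternatives with a range from 0.0225 to 0.257. With genotype label edgeR called 0 of 9, with 1 (Rhob) at an unadjusted p under 0.05 and 0 by DESeq2, where 0.172% of genes were called. By plain ratios, 1 of 9 members was past 1.5-fold higher with age in WT Cre (Ier3), where 4.44% of genes were. In EC-K4KO Ier3 was past it in the higher direction (5.66% of genes) and Egr2 in the lower (5.09%). Egr2, at 21.6, 20.9, 20.3 and 12.8 CPM, was low in the old EC-K4KO library alone and was also the 1 member past 1.5-fold lower in the old pair, where 2.93% of genes were. In the young pair 0 of 9 were past it, where 1.14% of genes were higher and 1.84% lower. A cluster with 44.9% of the smooth muscle-like cells of young WT Cre held 20.7%, 22.4% and 20.5% in the other libraries, in library order. Summed choroid plexus markers were 58.8, 14.6, 360 and 117 CPM in smooth muscle-like cells in library order. The part of either in these ratios was not tested.

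In these cells 4 of 14 relatives rose with age by edgeR, led by Egr3 (0.94), Zfp36l2 (0.57) and Nr4a2 (0.51). Of 34 other early genes 5 rose and 3 fell, with the largest log2 changes in Ptgs2 (2.86), Ccn2 (-1.14) and Gadd45b (1.08), and of 13 pathway genes Rps6ka3 rose (0.77). DESeq2 called fewer, 1 relative, 3 other early genes and 0 pathway genes. No heat shock gene passed (0 of 8, with 2 at an unadjusted p under 0.05 and 0 by DESeq2). With genotype label Ptgs2 was the 1 gene edgeR called of these lists (1.34), and DESeq2 called 0.

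Microglia-like cells, the resident macrophages of the brain (337, 583, 1295 and 742 cells), moved in both directions. The edgeR fit called 6 of 9 members with age, 4 higher and 2 lower, where 14.7% of 11321 genes rose and 9.82% fell. In this fit 1668 genes were higher and 1112 lower, against 762 and 3596 with library totals only. Egr2 rose (log2 change 1.12, adjusted p = 0.00107), as did Ier3 (0.85, adjusted p = 0.00011), Nr4a1 (0.72, adjusted p = 0.000173) and Ier2 (0.46, adjusted p = 0.00475). Rhob fell (-0.80, adjusted p = 0.000104) and so did Btg2 (-0.34, adjusted p = 0.031). Egr2, Ier3, Nr4a1 and Rhob passed in all 9 alternatives, Ier2 in 7 and Btg2 in 6 of them.

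Rhob was at 1022 and 1154 CPM in the young and at 506 and 487 CPM in the old microglia-like libraries (WT Cre and EC-K4KO in each age), and its share of thinned cells was 58.8%, 62.1%, 36.2% and 36.4%. Both young libraries were above both old ones by about the same amount under either label, with log2 ratios of -1.01 and -1.25. Ier3 was at 871, 661, 1164 and 1026 CPM and Nr4a1 at 325, 271, 457 and 332 CPM in library order. Egr2 was at 36.2, 14.2, 44.6 and 37.6 CPM, lowest in young EC-K4KO. Btg2 was at 754, 743, 494 and 448 CPM, lower in both old libraries.

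The plain ratios have to be read beside the shift of all genes, whose median was -0.26 in WT Cre and -0.33 in EC-K4KO on the log2 scale with age. Ier2 (224, 176, 253 and 189 CPM) had plain ratios of 0.17 and 0.10, and Egr1 (526, 526, 540 and 468 CPM) of 0.04 and -0.17, whose sign in EC-K4KO turns once TMM factors are applied. Egr1 had an edgeR log2 change of 0.26 (adjusted p = 0.0929) and was called higher in 4 of 9 alternatives, with a range from 0.0267 to 0.615. Ier5 (1226, 1051, 1185 and 891 CPM) and Zfp36 (1833, 1637, 1817 and 1260 CPM) did not pass in the fit, and their plain ratios of -0.05 and -0.01 in WT Cre turn with TMM factors too. In WT Cre 2 members, Btg2 and Rhob, were past 1.5-fold lower, where 21.7% of genes were. In EC-K4KO the same 2 were past it, where 29.3% of genes were lower, and Egr2 and Ier3 were past it in the higher direction, where 5.84% of genes were. With TMM factors Rhob stayed past it, but Btg2 did not, at log2 ratios of -0.33 in WT Cre and -0.36 in EC-K4KO. Nr4a1 was then past it in the higher direction under both labels (0.77 and 0.66), and Ier3 was in WT Cre too (0.70).

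The clusters behind microglia-like cells also differed. A cluster led by Il1b, Spp1 and Ptgs2 held 75.1% and 75.3% of these cells in old WT Cre and old EC-K4KO, but 39.5% and 31.6% in young WT Cre and young EC-K4KO, where another cluster held most (58.5% and 67.9%). Inside the cluster led by Il1b, Ier3 was at 1325, 1172, 1300 and 1131 CPM and Nr4a1 at 643, 567, 538 and 383 CPM in library order, and Egr2 was at 50.04, 28.7, 49.4 and 42.7 CPM. None of these 3 was higher in both old libraries there. Nr4a1, Ier2 (377, 347, 285 and 208 CPM) and Rhob (897, 1114, 408 and 423 CPM) were lower in both, as were Egr1, Btg2, Ier5 and Zfp36. In the other cluster Ier3 was at 504, 333, 583 and 534 CPM, Nr4a1 at 56.3, 80.9, 101 and 81.3 CPM and Rhob at 1156, 1184, 974 and 924 CPM. Zfp36 was at 840, 751, 1153 and 879 CPM in that cluster, higher in both old libraries. The summed level of the 8 microglia markers was 19544 and 21407 CPM in the young and 11759 and 11431 CPM in the old libraries, and its part in these differences was not tested.

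With genotype label edgeR called 0 of 9 members in microglia-like cells, with 6 at an unadjusted p under 0.05 and 0 by DESeq2, where 0.38% of genes were called. All 6 were lower with the EC-K4KO label, Egr2 with a log2 change of -0.59 (unadjusted p = 0.00983, adjusted p = 0.525, edgeR). The largest plain ratio was Egr2 in the young pair at -1.34 (95% interval -1.88 to -0.82), the 1 member past 1.5-fold lower there, where 2.65% of genes were. In the old pair 0 of 9 were past it, where 1.86% of genes were higher and 1.89% lower.

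Of the relatives, 8 of 14 rose and 1 fell with age in microglia-like cells by edgeR, led by Nr4a3 (2.64), Nab2, a corepressor of the Egr proteins (1.56), and Rhoc (1.41). Of 33 other early genes 13 rose and 4 fell, with the largest log2 changes in Trib1 (1.63), Gadd45b (1.61) and Ccn1 (-1.41). Of 13 pathway genes 2 rose (Mapkapk2, 1.65, and Map2k2, 0.46) and Rps6ka1 fell by 0.33 on the log2 scale. Of 8 heat shock genes 6 rose and 1 fell (Hspa1b, -0.73), led by Dnajb1 (0.84) and Hsph1 (0.79). DESeq2 called 6 relatives higher and 1 lower, 11 other early genes higher and 2 lower, 1 pathway gene and 3 heat shock genes higher. With genotype label 2 other early genes were lower (Ppp1r15a, -0.63, and Dusp2, -0.57) by edgeR and 0 by DESeq2.

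The genes whose level followed that of a member over cell classes were found by Pearson's r of log2 CPM over 32 points, each 1 class in 1 library with at least 50 cells. The points share 4 libraries and 13 classes, so r is a description over 7370 genes. Nr4a1 was most like Csrnp1 (0.93), Mafk (0.93) and Ppp1r15a (0.92). Zfp36 was most like Junb (0.96), Gadd45b (0.92) and Relb (0.91). Egr1 was most like Jun, Cdkn1c and Jund (each 0.83). Ier3 was nearest to Map3k8 (0.93), H2-Q4 (0.92) and Kdm6b (0.91), and Ier5 to Map3k8 (0.93), Tnfaip3 (0.93) and Nfkbiz (0.90).

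Btg2 was nearest to Pnrc1 (0.92), Socs3 (0.91) and Ppp1r15a (0.91), and Ier2 to Csrnp1 (0.90), Nr4a1 (0.89) and Junb (0.89). Among the members themselves, Nr4a1 and Btg2 were the most alike pair (0.89) and Ier3 and Rhob the least (0.16).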

How the data were processed

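The deposited values were raw UMI counts per gene and barcode that the authors made with Cell Ranger 6.0.2 (mm10, per the labels), limited to barcodes called as cells. Barcodes under 500 genes or 1000 UMIs, or over 10% mitochondrial UMIs, were left out, and the highest Scrublet scores (scanpy 1.11.5) were removed at 0.8% per 1000 cells. Each cell was placed in the marker list with the highest score, with at least 3 detected markers and a second list at under 0.5 of the first; 942 cells stayed unassigned, 453 lay near that limit, and of 19318 cells with both, 99.3% had the class of their Leiden cluster (leidenalg 0.10.2, 30 clusters).

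Counts were summed per library and class. Levels are CPM with exact Poisson 95% intervals, ratios use 0.5 added UMIs with exact conditional binomial intervals, and shares use cells thinned to 1000 UMIs with exact Clopper-Pearson intervals (scipy 1.17.1), all covering counting error only. A fold of 1.5 was counted over genes with at least 10 CPM. The test was edgeR 4.0.16 (R 4.3.3, TMM, quasi-likelihood, age plus genotype label, Benjamini-Hochberg over all genes, threshold 0.05), tested on simulated data first. Alternatives were DESeq2 1.42.0, its size factors, library totals, no filter on low counts, kept doublets, stricter cell filters (1000 genes, 2000 UMIs, 5% mitochondrial), thinned cells, equal weights, classes by clusters and, added later, cells without shared barcodes, capillary-like cells only and the largest pericyte cluster.

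The members and lists were chosen with earlier results of these data known. All members are named, and of each list the 3 called genes with the largest change. Likeness used genes at a mean of at least 20 CPM, and that of Rhob and Egr2 is not reported here. Promoter windows are from RefSeq (GRCm38.p6).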

Additional observations from a re-analysis of the deposited data

Results flagged for a closer look

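These values stood out because a member moved in opposite directions in 2 comparisons of the same kind, by over 1.5-fold between them. With 1 library per group the difference was not tested. A further 9 such pairs differed by less.

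In endothelial-like cells the log2 ratio of EC-K4KO over WT Cre was 0.47 in the young and -0.37 in the old pair for Nr4a1, and 0.68 and -0.22 for Zfp36. The log2 ratio of old over young for Nr4a1 was 0.39 in WT Cre and -0.46 in EC-K4KO, from the same 4 libraries.

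In pericyte-like cells the log2 ratio of EC-K4KO over WT Cre was 1.96 in the young and -0.41 in the old pair for Egr1. It was 0.58 and -0.58 for Nr4a1, 1.07 and -0.46 for Btg2, and 2.37 and -0.27 for Zfp36. In the largest pericyte cluster alone the young ratio was 1.52 for Egr1, -0.29 for Nr4a1, -0.064 for Btg2 and 0.93 for Zfp36.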

How the results depend on the processing

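No paired analysis was possible because each group had 1 library, and the replicate number 1 of all 4 pairs none of them. Leaving out a library left no residual degree of freedom and was not run. Of the changes of single genes in the edgeR fit, 471 values kept their direction and side of the threshold under an alternative, 26 came to pass it and 6 ceased to; of the ratios past 1.5-fold, 3 turned, and further ratios nearer 0 changed sign. The count of members called with age in endothelial-like cells was 5 in place of 3 with library totals only (Egr1, Ier2 and Rhob called lower, Btg2 lost; 2916 of 15085 genes lower, against 1039) and with no filter on low counts (Zfp36 higher, Rhob lower; 27563 genes tested, 1896 higher and 1942 lower). With genotype label in endothelial-like cells it was 1 in place of 0 with DESeq2, with its size factors and in capillary-like cells only, 3 with thinned cells and 2 with no filter. In microglia-like cells with genotype label it was 1 with doublets kept and 2 with no filter, in place of 0. In smooth muscle-like cells with age it was 2 in place of 1 with doublets kept, library totals, no filter or stricter cell filters.

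The count past 1.5-fold with age in WT Cre was 4 in place of 2 in endothelial-like cells with TMM factors, 2 in place of 1 in smooth muscle-like cells (stricter cells, and a total without mitochondrial and listed genes) and 1 in place of 2 in microglia-like cells (stricter cells). In the old pair of smooth muscle-like cells it was 2 in place of 1 with stricter cells. In pericyte-like cells the young pair went from 3 to 5 with stricter cells and to 7 with classes by clusters. The old pair went from 0 to 1 with TMM factors, equal weights or the total without listed genes, to 2 with classes by clusters and to 3 in the largest cluster. Old over young in EC-K4KO went from 7 to 2 with classes by clusters, where Nr4a1 and Zfp36 turned to -0.35 and -0.60. In the largest pericyte cluster Btg2 of the young pair (young EC-K4KO over young WT Cre) turned to -0.064 and Nr4a1 to -0.29. Pericyte-like classes hold other cells under these alternatives; for the rest the cause was not tested. Depth limits Egr2 most, with at most 3 UMIs in pericyte-like cells.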

Other observations

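Oligodendrocyte-like cells, the myelin-forming cells, reached 50 cells in 3 libraries (83 in young WT Cre, 319 in old WT Cre and 139 in old EC-K4KO). Egr1 was at 275, 1189 and 888 CPM in that order, and Egr2 at 22.9, 58.7 and 39.0 CPM. Nr4a1 was at 33.2, 194 and 155 CPM, Btg2 at 121, 546 and 400 CPM, and Zfp36 at 24.0, 108 and 90.3 CPM, each lowest in the young library. Ier3 was at 18.3, 23.7 and 18.3 CPM and Rhob at 800, 819 and 729 CPM, nearly level over the 3. Fos (832, 3182 and 2132 CPM) and the heat shock gene Hspa1a (214, 1545 and 809 CPM) had the same order of libraries as Egr1, and their part was not tested.

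Ependymal-like cells of old WT Cre (112 cells), which line the ventricles, held 2469 CPM of Egr1, 3662 CPM of Btg2, 2577 CPM of Zfp36 and 9636 CPM of Fos, beside 231 CPM of Hspa1a. Choroid plexus-like cells (165 in old WT Cre and 55 in old EC-K4KO) held 915 and 769 CPM of Egr1 but little Rhob (8.53 CPM in old WT Cre). Neutrophil-like cells of old EC-K4KO (219 cells) held 27.8 CPM of Egr1 and 519 CPM of Btg2, and monocyte-like cells of the same library (69 cells) held 11.8 CPM of Egr1 and 382 CPM of Ier3.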
